A study of Mus musculus with 12 samples.

Results

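Probe sets were found for 38 genes that encode receptors of serotonin, dopamine, noradrenaline and adrenaline, acetylcholine, and histamine, out of 18193 genes with 1 gene symbol. They were chosen by name: every probe set whose only symbol began with Htr, Drd, Adra, Adrb, Chrm, Chrna, Chrnb or Hrh and a digit was taken, the Adrbk kinases were left out, and of the 66 probe sets found each gene was represented by the brightest, judged by mean log2 intensity on the 12 arrays. The mean was at least 5 for 18 of these 38 genes, against 11639 of the 18193 genes in all. No probe set with a single symbol was found for Htr2a, Drd5, Chrm2, Chrm5, Adra1a, Adra1d, Adra2a, Adra2b or any Adrb gene. Counts of receptor genes by transmitter cover only the genes found, and nothing is said here of the expression of the others. Tissue came from the prefrontal cortex of C57BL/6J mice, an inbred strain, obtained at 10 weeks of age, kept in cycles of 12 h light and 12 h dark, and given no treatment in any group. Zeitgeber time (ZT) counts hours from lights on. Light-phase tissue was taken at ZT3 and ZT9 and dark-phase tissue at ZT15 and ZT21, with red light for removal of the brain, with 3 mice per time. Each array held the RNA of 1 mouse, numbered here as the labels number the replicates, and these numbers do not tie mice of different times to each other. A single day was sampled with 4 times, so that a cycle of 24 h and a difference between those mice cannot be told apart.

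The monoamines and acetylcholine reach the prefrontal cortex from small cell groups in the brainstem, the basal forebrain and the hypothalamus, whose axons spread through the whole cortex and whose firing follows sleep and waking. The receptors sit on cortical neurons, glia, vessels and the incoming axons themselves. Most are coupled to G proteins: Gq/11 raises calcium and phospholipase C activity, Gs raises cyclic AMP, and Gi/o lowers it. The nicotinic receptors and the serotonin receptor built from Htr3a are ion channels that the transmitter opens directly.

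The tissue had the RNA of cortex. Among the 5 measured markers of cortical excitatory neurons the vesicular glutamate transporter Slc17a7 lay between 12.08 and 12.36 on the log2 scale over the 12 arrays, and all 4 olfactory bulb markers had means below 5. Of the other excitatory neuron markers Neurod2, for a transcription factor of these cells, passed the F-test over the 4 times (adjusted p = 0.193 in limma), and Camk2a and Neurod6 had an unadjusted p of 0.0347 and 0.0483 (adjusted p = 0.298 and 0.316) with arrays between 10.88 and 11.72 and between 9.91 and 10.87. Cldn5, for a tight junction protein of endothelium, passed too, at 8.97 ± 0.13, 8.27 ± 0.34, 8.40 ± 0.19 and 9.33 ± 0.09 at ZT3, ZT9, ZT15 and ZT21 (SD, n = 3 each; adjusted p = 0.0572). Of the 7 markers of the transmitters' own cell bodies, Th, Tph2, Hdc, Chat, Slc6a3 and Slc6a4 had means between 2.03 and 3.64, and Dbh lay at 6.68 with a range of 0.01 over the 4 times. Tissue beside the cortex differed between arrays. The summed level of the 8 measured choroid plexus markers was 14.87 on the array of ZT9 mouse 3 and 14.22 on that of ZT15 mouse 1, and between 9.76 and 12.46 on the other 10. The summed level of the 8 measured striatum markers was 11.47 and 11.31 on the arrays of ZT9 mice 1 and 3, and between 10.40 and 11.05 on the other 10. The summed level of the 5 meninges markers was highest on the same 2 arrays, at 10.43 and 10.17, and between 9.47 and 10.09 on the others. In RNA of a whole tissue, fewer cells of a type and less RNA per cell cannot be told apart.

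For 3 receptor genes the RNA passed the test for change over the day, each with settings or arrays without which the call was lost. Htr2c, which encodes a Gq/11-coupled serotonin receptor, passed close to the threshold of 0.20 (adjusted p = 0.189 in limma's F-test). So did Hrh1 (0.192), which encodes a Gq/11-coupled histamine receptor. Hrh3, which encodes a Gi/o-coupled histamine receptor, had 0.127. Htr2c and Hrh3 were highest at ZT9, late in the light, and Hrh1 at ZT15, early in the dark. By limma's moderated F-test over the 4 times these 3 of 18 genes had an adjusted p under 0.20, against 483 of 24075 tested probe sets (2.01%). At an unadjusted p under 0.05 the counts were 4 of 18 and 3764 of 24075 (15.6%). No receptor gene passed the comparison of dark (ZT15 and ZT21) with light (ZT3 and ZT9) at an adjusted p under 0.05, which 23 of all tested probe sets passed with the dark higher (0.0955%) and 0 with the dark lower (0.0%). At an unadjusted p under 0.05 in limma, 1 receptor gene was higher in the dark and 2 were lower, where 8.88% and 6.63% of all tested probe sets were. The median range, the highest minus the lowest of the 4 time-point means, was 0.28 on the log2 scale both for the 18 genes and for all tested probe sets. The 18 genes spread from 0.02 for Adra1b to 1.32 for Htr2c, and the 95th percentile of all tested probe sets was 0.70. The highest mean fell at ZT3 for 6 of the 18 genes (21.6% of all tested probe sets), at ZT9 for 7 (29.3%), at ZT15 for 3 (24.3%) and at ZT21 for 2 (24.7%). The lowest mean fell at ZT3 for 6 genes (39.4% of all), at ZT9 for 1 (15.4%), at ZT15 for 6 (15.2%) and at ZT21 for 5 (29.9%). In 0 of the 18 genes did the 6 dark arrays lie wholly above (0.478% of all) or wholly below (0.199%) the 6 light arrays. The difference of dark minus light was below 0 for 14 of 18 genes, with a median of -0.03, against 47.7% of all tested probe sets, with a median of 0.01.

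**Figure D1:**
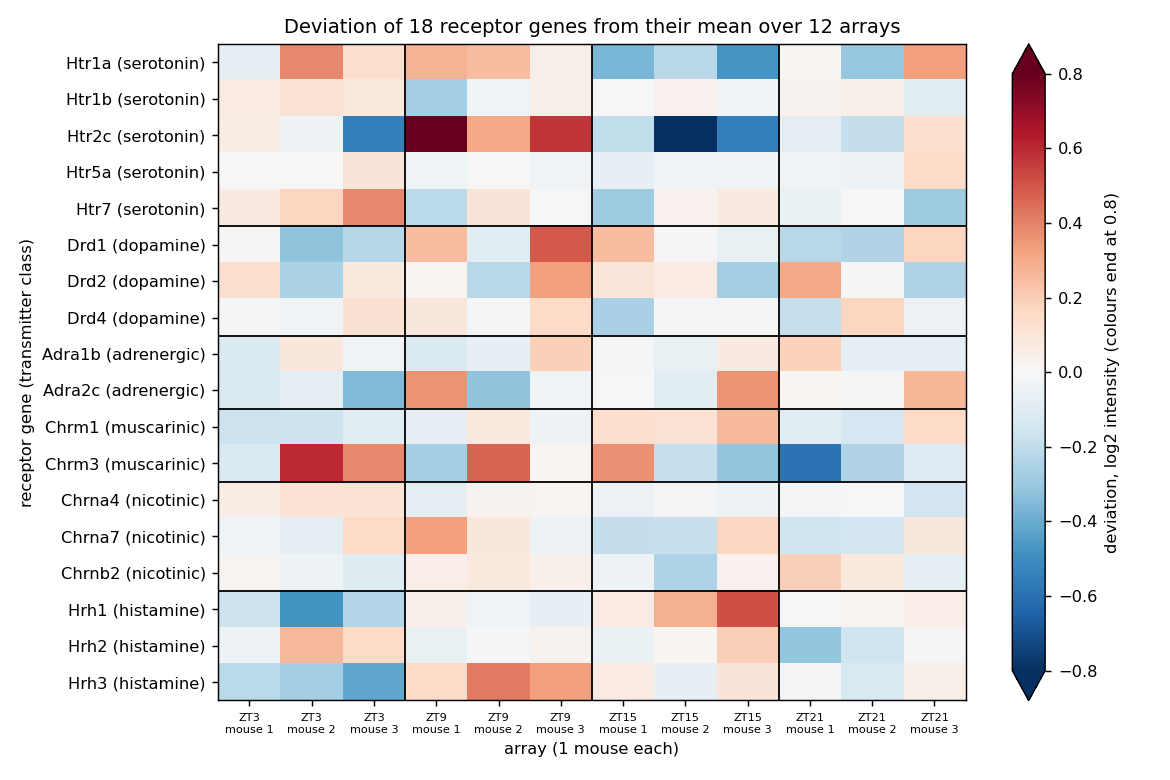
Deviation of each of the 18 receptor genes with a mean log2 intensity of at least 5 (rows, ordered by transmitter) from its own mean over the 12 arrays (columns, 3 mice per time, ZT3 to ZT21), on the log2 scale. Htr2c is highest on the 3 arrays of ZT9, Hrh3 is lowest on the 3 of ZT3, and most rows of the nicotinic class stay pale.

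**Figure D2:**
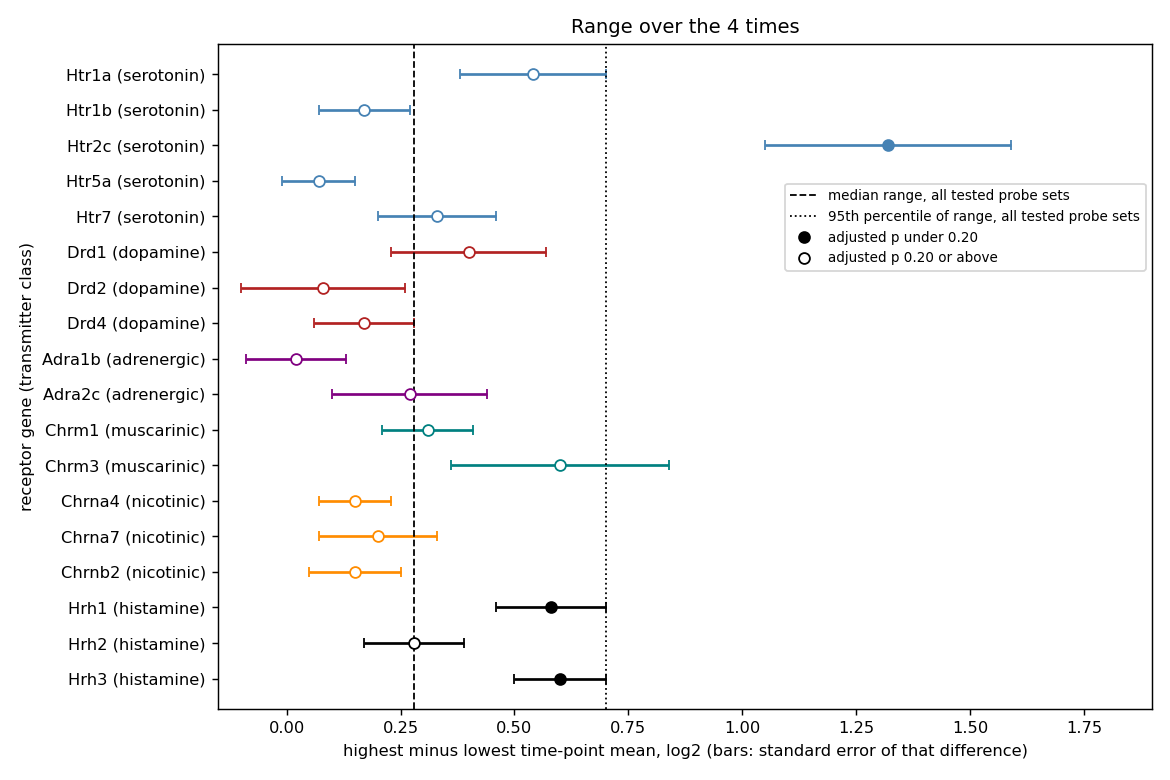
Highest minus lowest time-point mean on the log2 scale for each of the 18 genes, with the standard error of that difference as bars; filled points have an adjusted p under 0.20 in the F-test. Htr2c, at 1.32, lies beyond the 95th percentile of all tested probe sets (0.70, dotted), and the median of all tested probe sets is 0.28 (dashed).

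The stretches of 250 bases before the annotated starts of the 3 genes are printed because these genes passed the test. The letters searched for were those bound by factors of the clock and of cyclic AMP signalling, and, added after these had been searched, the GC box and TATAAA. The sequences are those of RefSeq on GRCm38.p6, written 5′ to 3′ on the gene's own strand, and capitals mark GC boxes (GGGCGG on either strand), which Sp1-family factors bind. Hrh3 starts on the minus strand and the stretch is chr2:180104408-180104657, Hrh1 has 4 annotated starts of which the most upstream follows chr6:114397686-114397935 on the plus strand, and Htr2c lies on the plus strand after chrX:146962263-146962512.
Hrh3: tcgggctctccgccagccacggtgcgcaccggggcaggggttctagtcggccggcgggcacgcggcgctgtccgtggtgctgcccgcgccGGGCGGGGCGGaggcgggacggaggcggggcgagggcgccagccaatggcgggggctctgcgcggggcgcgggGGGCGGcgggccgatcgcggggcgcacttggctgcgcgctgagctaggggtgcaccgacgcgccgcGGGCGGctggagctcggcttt
Hrh1: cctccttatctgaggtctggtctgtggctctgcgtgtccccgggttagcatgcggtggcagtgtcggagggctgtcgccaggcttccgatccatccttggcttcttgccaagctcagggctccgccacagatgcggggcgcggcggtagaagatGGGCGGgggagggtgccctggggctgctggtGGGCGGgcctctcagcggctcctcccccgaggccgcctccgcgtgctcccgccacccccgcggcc
Htr2c: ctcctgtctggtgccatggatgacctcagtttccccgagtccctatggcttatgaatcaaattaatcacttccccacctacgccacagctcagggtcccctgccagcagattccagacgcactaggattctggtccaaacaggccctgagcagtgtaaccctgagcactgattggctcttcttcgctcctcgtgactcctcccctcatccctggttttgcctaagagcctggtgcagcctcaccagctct
Guanine and cytosine made up 80.8% of the Hrh3 stretch, 71.2% of that of Hrh1 and 55.6% of that of Htr2c, with a median of 52.4% over the 32851 such stretches of the table. The GC box occurred 4 times for Hrh3, 2 times for Hrh1 and 0 times for Htr2c, and 32.7% of all stretches held it. For Hrh1 both values depended on the start: the other 3 stretches had 78.4%, 49.6% and 51.2% of guanine and cytosine and 4, 0 and 0 GC boxes. Stretches were at hand for 17 of the 18 genes, 23 in all. The GC box stood in 12 of these 23 stretches, from 10 of the 17 genes. These were Adra1b, Chrna4, Chrna7, Drd1, Drd2, Drd4, Hrh1, Hrh2, Hrh3 and Htr1a, of which only Hrh1 and Hrh3 passed the F-test. The E-box CACGTG, which the clock proteins bind, stood in those of Adra2c and Chrna7 alone among the 17 genes, where 6.02% of all stretches held it. The D-box TTATGTAA (0.819% of all stretches) and the cyclic AMP response element TGACGTCA (1.55%) stood in none of them, on either strand, and TATAAA (12.4%) in none. A match is a run of letters and no shown site, and a missing one says only that these letters are not in this window.

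Among the 13 serotonin receptor genes, Htr1a, Htr1b, Htr2c, Htr5a and Htr7 had a mean of at least 5, and Htr1d, Htr1f, Htr2b, Htr3a, Htr3b, Htr4, Htr5b and Htr6 did not. Htr2c encodes the 5-HT2C receptor, found on cortical and subcortical neurons and at very high levels in the epithelium of the choroid plexus. Its level was 8.67, 8.57 and 8.06 at ZT3, 10.05, 8.92 and 9.18 at ZT9, 8.41, 7.71 and 8.06 at ZT15, and 8.53, 8.42 and 8.74 at ZT21. The 3 mice of ZT9 lay above all 9 others, and mouse 1 stood apart from the other 2 of its time. The mean at ZT9 was 9.39 ± 0.59 (SD, n = 3) and exceeded that at ZT15, 8.06 ± 0.35, by 1.32 with a standard error of 0.27 (adjusted p = 0.189 in limma's F-test). Dark arrays averaged 8.31 and light arrays 8.91, a difference of -0.60 with a standard error of 0.19 that did not pass (adjusted p = 0.215).

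A second probe set for Htr2c, 1450477_at, gave 6.89, 7.12 and 6.86 at ZT3, 7.23, 7.60 and 7.54 at ZT9, 6.88, 6.31 and 5.80 at ZT15, and 5.68, 6.51 and 6.35 at ZT21. Here too the 3 mice of ZT9 lay above all others, but mouse 1 was the lowest of them, and the low point was ZT21, not ZT15. Its range was 1.28 with a standard error of 0.26 (adjusted p = 0.152 in the F-test). Dark arrays ran from 5.68 to 6.88 and light arrays from 6.86 to 7.60, so that the phases overlapped by ZT15 mouse 1 alone. The difference of dark minus light was -0.95 with a standard error of 0.18 and did not pass (adjusted p = 0.0899 in limma). It passed without ZT15 mouse 1 (0.0374), the array that made the overlap. With any other single array left out it did not pass, from 0.0523 without ZT9 mouse 1 to 0.259 without ZT3 mouse 2. With no filter the adjusted p was 0.187.

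The striatum and the choroid plexus both express Htr2c. The striatum and meninges sums were highest on the arrays of ZT9 mice 1 and 3, where Htr2c read 10.05 and 9.18 by its first probe set. The choroid plexus transthyretin gene Ttr read 14.82 on ZT9 mouse 3 and 14.18 on ZT15 mouse 1 against at most 12.40 elsewhere, and Kl, a choroid plexus gene too, 8.12 and 5.68 against at most 3.80. ZT9 mouse 1, with the highest Htr2c, read 10.92 for Ttr and 3.64 for Kl. None of the 3 choroid plexus markers tested and none of the 4 striatum markers tested passed the F-test. The smallest unadjusted p of that test among them was 0.0411, for Penk. None of the 4 meninges markers tested passed it, with an unadjusted p of 0.0347 for Col1a1 and 0.0427 for Dcn. This test weighs means against the spread within a time, so it can miss a marker high on single arrays, such as Ttr (SD 2.3 at ZT9, n = 3). Kl and the striatum marker Gpr6 had means below 5 and were not tested. What part other tissue had in the Htr2c values was not tested. Without the arrays of ZT9 mouse 3 and ZT15 mouse 1 the ZT9 to ZT15 difference of Htr2c was 1.60 (adjusted p = 0.208 in limma), and without those of ZT9 mice 1 and 3 it was 0.86. The second probe set had a range of 1.36 in the former fit (adjusted p = 0.153 in limma) and 1.42 in the latter. In the latter ZT9 mouse 2 alone was left of its time, and its 7.60 was the highest value of the second probe set. Leaving out ZT9 mouse 1 alone gave 0.99 by the first probe set (adjusted p = 0.142). The call of the first probe set was lost with median centring (adjusted p = 0.221) and with no filter on dim probe sets (0.336), and that of the second with no filter (0.282). The call of the first was also lost without any of the 3 mice of ZT3 (adjusted p = 0.233, 0.419 and 0.371), without ZT15 mouse 2 (0.291) or without ZT21 mouse 1 or 2 (0.340 and 0.291), and that of the second without the same mice (0.209, 0.356, 0.327, 0.234, 0.254 and 0.216) or ZT9 mouse 2 (0.253).

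**Figure D3:**
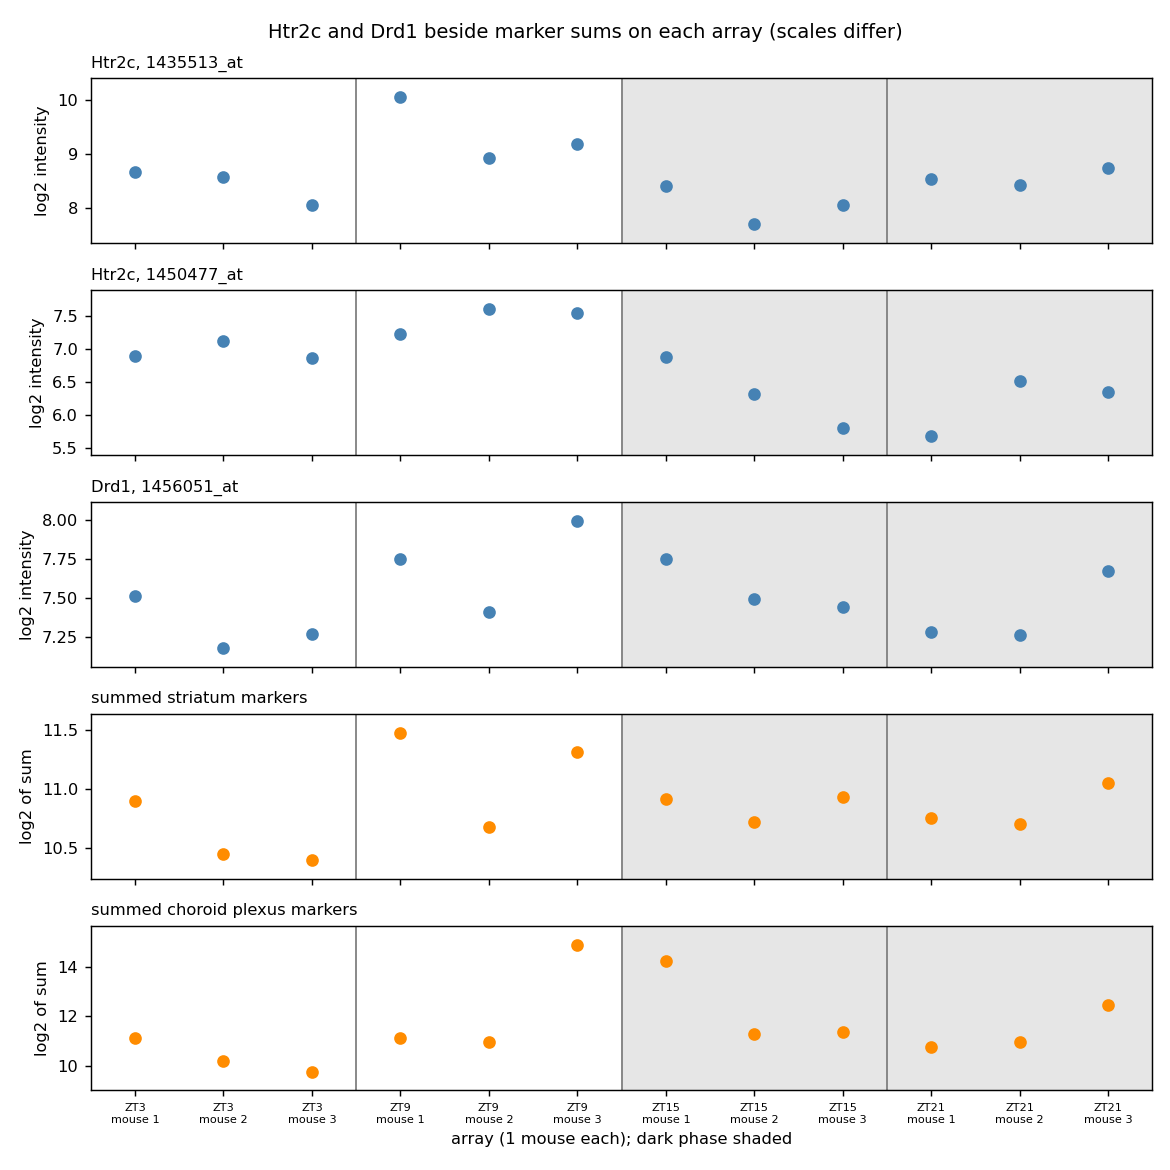
Log2 intensity of both Htr2c probe sets and of Drd1, and log2 of the summed intensity of the striatum and choroid plexus markers, on each of the 12 arrays (1 mouse each; dark phase shaded; each panel has its own scale). The striatum sum is highest on ZT9 mice 1 and 3 (11.47 and 11.31) and the choroid plexus sum on ZT9 mouse 3 and ZT15 mouse 1 (14.87 and 14.22), while the second Htr2c probe set is highest on ZT9 mouse 2 (7.60).

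Htr1a encodes a Gi/o-coupled receptor that hyperpolarizes cortical pyramidal cells. It read 7.90, 8.36 and 8.11 at ZT3, 8.25, 8.22 and 8.02 at ZT9, 7.61, 7.75 and 7.50 at ZT15, and 7.99, 7.67 and 8.30 at ZT21. All 3 mice of ZT15 lay below the 6 mice of the light phase, while those of ZT21 spread over both. Dark arrays averaged 7.80 and light arrays 8.14, a difference of -0.34 with a standard error of 0.11 (adjusted p = 0.226 in limma). Over the 4 times the range was 0.54 with a standard error of 0.16 (adjusted p = 0.275 in the F-test), which passed with quantile normalization (0.168) and among the 15000 brightest probe sets (0.197).

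Htr7, for a Gs-coupled receptor, read 8.53, 8.63 and 8.84 at ZT3, 8.24, 8.56 and 8.45 at ZT9, 8.17, 8.49 and 8.53 at ZT15, and 8.40, 8.46 and 8.17 at ZT21. The times overlapped, with a range of 0.33 and a standard error of 0.13 (adjusted p = 0.407 in the F-test). Htr5a, for a Gi/o-coupled receptor, stayed between 6.49 and 6.71 on all arrays, a range of 0.07 over the times with a standard error of 0.08. Its SD between mice ran from 0.01 at ZT9 to 0.11 at ZT21. Dbh, at a mean of 6.68, was as flat, with an SD of 0.01 at ZT3 and 0.13 at ZT21. Whether such flat values stood above background was not tested.

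Htr1b encodes a Gi/o-coupled receptor of axon terminals, and its probe sets did not give the same profile. The brighter, 1422288_at, lay between 6.16 and 6.55, with a range of 0.17 and a standard error of 0.10 (adjusted p = 0.609 in the F-test). Brighter means only a higher mean, and whether these flat values were signal or background was not tested. The other, 1442077_at, was singled out after its values were seen. It read 5.97, 5.99 and 6.29 at ZT3, 6.01, 5.97 and 5.91 at ZT9, 6.85, 6.69 and 6.72 at ZT15, and 6.15, 6.23 and 6.51 at ZT21. The 3 mice of ZT15 lay above all 9 others, and the range was 0.79 with a standard error of 0.12 (adjusted p = 0.0664). Dark arrays averaged 6.52 and light arrays 6.02. The difference, 0.50 with a standard error of 0.08, was just outside the threshold (adjusted p = 0.0537 in limma). It was inside with quantile normalization (0.0365) and without ZT9 mouse 1 (0.0464). With any other single array left out it stayed outside, from 0.068 without ZT3 mouse 3 to 0.181 without ZT3 mouse 2. It was also outside with no filter (0.0949) and with the replicate block (0.104). The F-test call of this probe set was lost without ZT3 mouse 2 (adjusted p = 0.213). Over the 12 arrays the 2 probe sets correlated at r = -0.02, a description of values that share the same RNA.

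**Figure D4:**
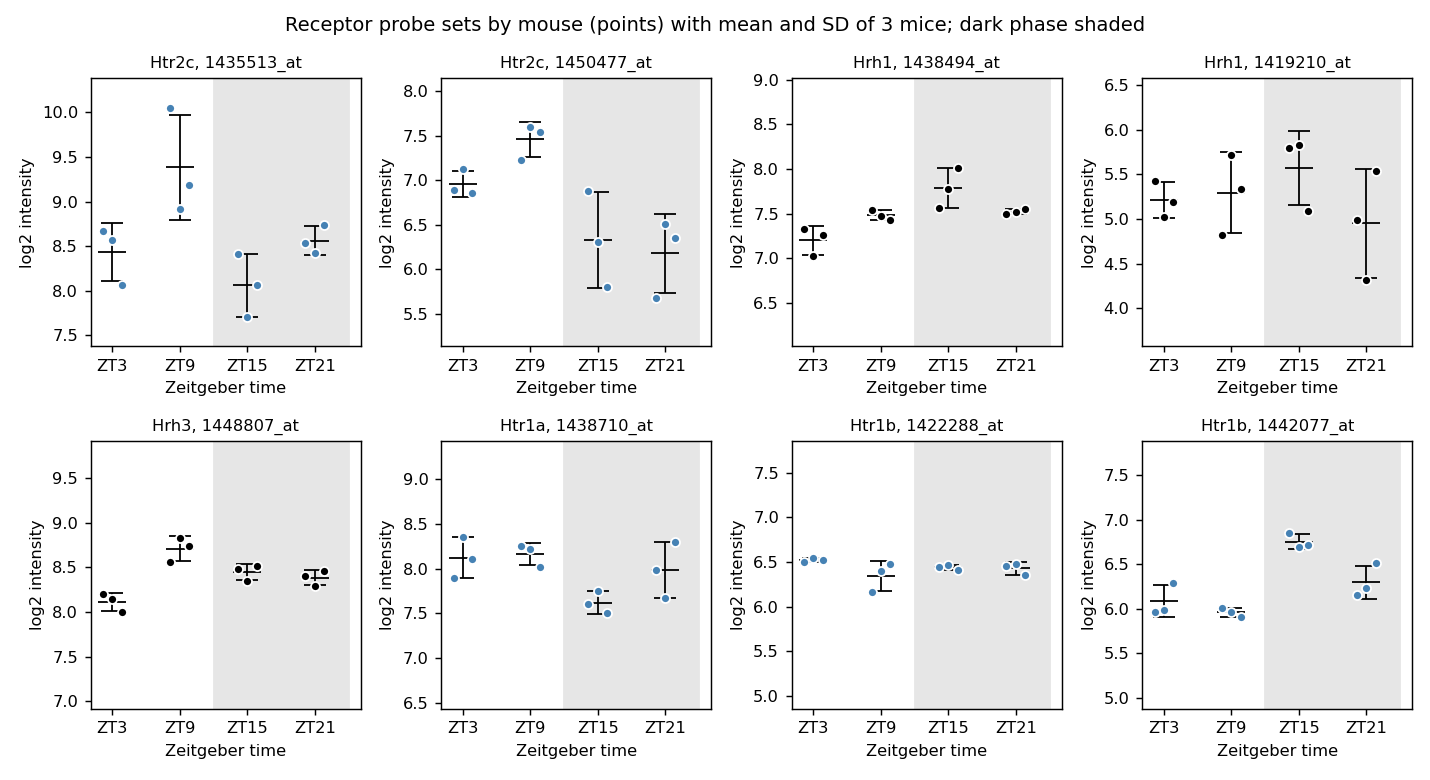
Log2 intensity of 8 probe sets of Htr2c, Hrh1, Hrh3, Htr1a and Htr1b by time (points, 1 mouse each; bars, mean and SD of 3 mice; dark phase shaded; every panel spans 3 log2 units). Both Htr2c probe sets peak at ZT9, the Hrh3 mice of ZT3 lie lowest, and of the Htr1b probe sets only 1442077_at has its ZT15 mice (6.69 to 6.85) above all others.

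Averaged over the 5 serotonin receptor genes, the mean deviation from each gene's own mean was 0.06 ± 0.06 at ZT3 (SD over 3 mice), 0.16 ± 0.07 at ZT9, -0.20 ± 0.02 at ZT15 and -0.02 ± 0.07 at ZT21. Dark minus light differences of the 5 genes ran from -0.60 to -0.00 with a median of -0.17. The means include the wide differences of Htr2c, and the second Htr1b probe set ran the other way.

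All of the 4 histamine receptor genes but Hrh4 had a mean of at least 5. Histamine is released in cortex by hypothalamic neurons that fire in waking. Hrh3 encodes the receptor by which histaminergic and other axons hold back their own release, and which cortical neurons carry as well. It read 8.20, 8.14 and 8.00 at ZT3, 8.56, 8.83 and 8.74 at ZT9, 8.48, 8.35 and 8.52 at ZT15, and 8.40, 8.29 and 8.46 at ZT21. The mice of ZT3 lay below all others, and those of ZT9 above all others. ZT9 exceeded ZT3 by 0.60 with a standard error of 0.10, at 8.71 ± 0.14 and 8.12 ± 0.10 (SD, n = 3 each; adjusted p = 0.127 in limma's F-test). Dark arrays averaged 8.41 and light arrays 8.42, with both extreme times in the light. The excitatory neuron marker Neurod2 had the same highest and lowest times, at 9.11, 9.03 and 9.08 at ZT3, 9.52, 9.52 and 9.53 at ZT9, 9.16, 9.01 and 9.25 at ZT15, and 9.22, 9.28 and 9.56 at ZT21. Slc17a7 was highest at ZT9 and lowest at ZT21. Camk2a was highest at ZT3 (11.55, against 11.13 at ZT9), and Neurod6 and Tbr1 were highest at ZT21. The summed level of the 5 markers of these neurons lay between 13.30 and 13.49 at ZT3 and between 13.28 and 13.52 at ZT9. The call of Hrh3 was lost without ZT3 mouse 2 (adjusted p = 0.371) or 3 (0.385), ZT9 mouse 2 (0.228), ZT15 mouse 2 (0.206) or ZT21 mouse 1 (0.246) or 2 (0.209), and without the 2 arrays rich in choroid plexus markers (0.213), where the difference was 0.58.

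Hrh1 encodes the Gq/11-coupled receptor through which histamine excites neurons and which astrocytes and vessels also carry. It read 7.33, 7.02 and 7.26 at ZT3, 7.54, 7.47 and 7.43 at ZT9, 7.56, 7.78 and 8.01 at ZT15, and 7.50, 7.52 and 7.55 at ZT21. The 3 mice of ZT15 lay above all others and those of ZT3 below all others, with the mice of ZT21 within 0.05 of each other. ZT15 exceeded ZT3 by 0.58 with a standard error of 0.12, at 7.78 ± 0.22 and 7.20 ± 0.16 (SD, n = 3 each; adjusted p = 0.192 in limma's F-test). Dark arrays averaged 7.65 and light arrays 7.34, and of the light arrays ZT9 mouse 1 alone, at 7.54, reached into the dark range of 7.50 to 8.01. That difference, 0.31 with a standard error of 0.08, did not pass (adjusted p = 0.186). The F-test call was lost with median centring (adjusted p = 0.210), with no filter (0.280) and with an intensity trend and robust prior (0.215). It was also lost without any of the 3 mice of ZT3 (adjusted p = 0.242, 0.482 and 0.419), ZT9 mouse 2 (0.253), ZT15 mouse 2 (0.298) or ZT21 mouse 1 or 2 (0.352 and 0.299). A second, dimmer probe set had a range of 0.62 with a standard error of 0.31 (adjusted p = 0.551). It too was highest at ZT15, but lowest at ZT21, with a dark minus light difference of 0.01 and r = 0.14 with the first over the 12 arrays.

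Hrh2, for a Gs-coupled receptor, read 5.21, 5.51 and 5.41 at ZT3, 5.19, 5.24 and 5.28 at ZT9, 5.20, 5.27 and 5.44 at ZT15, and 4.94, 5.09 and 5.24 at ZT21. It lay close to the limit of 5, the times overlapped, and the range was 0.28 with a standard error of 0.11 (adjusted p = 0.403 in the F-test). The mean deviation of the 3 histamine receptor genes was -0.16 ± 0.01 at ZT3 (SD over 3 mice), 0.09 ± 0.04 at ZT9, 0.12 ± 0.13 at ZT15 and -0.06 ± 0.07 at ZT21.

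Of the 4 dopamine receptor genes, Drd1, Drd2 and Drd4 had a mean of at least 5 and Drd3 did not. Drd1, for the Gs-coupled D1 receptor, and Drd2, for the Gi/o-coupled D2 receptor, are used as markers of the output neurons of the striatum and are also transcribed in cortical neurons. Drd1 read 7.51, 7.18 and 7.27 at ZT3, 7.75, 7.41 and 7.99 at ZT9, 7.75, 7.49 and 7.44 at ZT15, and 7.28, 7.26 and 7.67 at ZT21. The times overlapped, and the arrays of ZT9 mouse 3, ZT9 mouse 1 and ZT15 mouse 1 were highest. The range was 0.40 with a standard error of 0.17 (adjusted p = 0.413 in the F-test). Its second probe set gave 0.58 with a standard error of 0.20 (adjusted p = 0.337), with the same highest and lowest times, ZT9 and ZT3. The striatal enkephalin gene Penk was highest on the same arrays of ZT9, at 9.96 and 9.97 for mice 1 and 3. Other striatum markers followed these arrays in part: Tac1 read 10.25 and 9.52 there, against 8.79 to 9.63 elsewhere, and Ppp1r1b 7.79 and 8.70, against 7.52 to 8.31. Without the arrays of ZT9 mice 1 and 3 the ZT9 to ZT3 difference of Drd1 was 0.09. That value rests on ZT9 mouse 2, at 7.41, as the only mouse left of its time. What part other tissue had in these values was not tested.

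Drd2 read 5.75, 5.37 and 5.70 at ZT3, 5.64, 5.40 and 5.95 at ZT9, 5.72, 5.69 and 5.35 at ZT15, and 5.93, 5.61 and 5.38 at ZT21. Its 4 means lay within 0.08 of each other with a standard error of 0.18, less than the spread between mice of any time. Drd4, for a Gi/o-coupled receptor, read 5.13, 5.11 and 5.26 at ZT3, 5.23, 5.13 and 5.30 at ZT9, 4.88, 5.13 and 5.13 at ZT15, and 4.95, 5.31 and 5.09 at ZT21. Its range was 0.17 with a standard error of 0.11 (adjusted p = 0.694 in the F-test), and with a mean of 5.14 it was the gene just inside the limit, by a probe set whose name ends in _s_at, the maker's mark for probes that can match more than 1 transcript.

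Both adrenergic receptor genes found by the rule, Adra1b and Adra2c, had a mean of at least 5. Adra2c encodes a Gi/o-coupled receptor and read 8.06, 8.10 and 7.82 at ZT3, 8.53, 7.85 and 8.14 at ZT9, 8.17, 8.09 and 8.53 at ZT15, and 8.19, 8.16 and 8.44 at ZT21. The mice of ZT9 alone spanned nearly the whole spread. The range was 0.27 with a standard error of 0.17 (adjusted p = 0.620 in the F-test), and 0.31 with the same order of highest and lowest times by a second probe set. Adra1b, for a Gq/11-coupled receptor, read 5.11, 5.31 and 5.19 at ZT3, 5.10, 5.15 and 5.41 at ZT9, 5.20, 5.16 and 5.29 at ZT15, and 5.40, 5.14 and 5.14 at ZT21. Its 4 means differed by 0.02 with a standard error of 0.11.

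The acetylcholine receptors fall into the muscarinic ones, coupled to G proteins, and the nicotinic channels. Of the 3 muscarinic genes found by the rule, Chrm1 and Chrm3, both for Gq/11-coupled receptors, had a mean of at least 5 and Chrm4 did not. Chrm1, which makes pyramidal cells more excitable, read 10.03, 10.04 and 10.11 at ZT3, 10.14, 10.29 and 10.16 at ZT9, 10.34, 10.32 and 10.46 at ZT15, and 10.12, 10.06 and 10.36 at ZT21. The mice of ZT15 lay above all 6 of the light phase, and ZT21 mouse 3 lay with them. The range was 0.31 with a standard error of 0.10 (adjusted p = 0.324 in the F-test), with ZT15 highest and ZT3 lowest in both of its tested probe sets. Chrm3 read 6.70, 7.42 and 7.21 at ZT3, 6.55, 7.29 and 6.84 at ZT9, 7.19, 6.64 and 6.51 at ZT15, and 6.23, 6.58 and 6.72 at ZT21. Mice of the same time differed by up to 0.74, the range over the times was 0.60 with a standard error of 0.24 (adjusted p = 0.427), and dark and light averaged 6.64 and 7.00.

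Only 3 of the 12 nicotinic genes reached a mean of 5: Chrna4 and Chrnb2, whose proteins combine into the most common high-affinity nicotinic channel of the brain, and Chrna7, whose protein forms a channel of its own kind. Chrna1, Chrna2, Chrna3, Chrna5, Chrna6, Chrna9, Chrnb1, Chrnb3 and Chrnb4 lay below it. Chrna4 read 7.12, 7.17 and 7.17 at ZT3, 6.98, 7.09 and 7.08 at ZT9, 7.01, 7.05 and 7.02 at ZT15, and 7.05, 7.06 and 6.91 at ZT21. Chrnb2 read 8.41, 8.35 and 8.29 at ZT3, 8.44, 8.47 and 8.43 at ZT9, 8.35, 8.14 and 8.42 at ZT15, and 8.58, 8.47 and 8.31 at ZT21. These partner subunits had ranges of 0.15 each, with standard errors of 0.08 and 0.10 (adjusted p = 0.568 and 0.616 in the F-test). A second Chrna4 probe set of nearly the same brightness, 1421203_at with a mean of 7.02, had a range of 0.43 with a standard error of 0.20 (adjusted p = 0.507), highest at ZT9 and lowest at ZT15, where the first was highest at ZT3 and lowest at ZT21. Chrna7 read 8.12, 8.08 and 8.31 at ZT3, 8.48, 8.24 and 8.11 at ZT9, 7.96, 7.97 and 8.32 at ZT15, and 7.99, 8.00 and 8.24 at ZT21. Its range was 0.20 with a standard error of 0.13 (adjusted p = 0.649), and no nicotinic gene passed the test over the times.

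The 20 genes with a mean below 5 were not tested. Htr3a, the channel subunit that marks a group of cortical interneurons, was nearest below the limit with a mean of 4.90, followed by Chrna1 with 4.41, while Drd4 (5.14) and Adra1b (5.22) were nearest above it. Htr3a read 4.87, 4.90 and 5.00 at ZT3, 4.64, 4.79 and 4.91 at ZT9, 4.91, 4.75 and 4.84 at ZT15, and 5.32, 5.02 and 4.85 at ZT21. The others had means between 1.91, for Htr2b, and 4.41. In 17 of the 20 the highest and lowest arrays lay less than 0.5 apart, as they did in 7 of the 18 tested genes, and the exceptions were Htr1f (1.19), Htr3a (0.68) and Chrna1 (0.54). The widest of them, Htr1f, lay between 3.67 and 4.39 apart from 4.86 on ZT3 mouse 2. Detection calls were not used here, and whether any gene of this group stood above background was not tested.

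Where a gene had more than 1 probe set above the limit, the profiles were set side by side. This was so for 7 genes with 9 pairs of probe sets, of which 6 pairs had their highest mean at the same time and 7 had dark minus light differences of the same sign. The pairs of Htr1b and Chrna4 supplied the 3 with different highest times, and those of Htr1b and Drd1 the 2 with different signs.

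Genes around the receptors were described from 3 lists. Of 14 tested genes for synthesis, transport and breakdown of the transmitters, Ache alone passed the F-test, which 2.01% of all tested probe sets passed. Ache encodes acetylcholinesterase, which ends the action of acetylcholine, and read 7.52, 7.56 and 7.49 at ZT3, 7.92, 8.16 and 7.98 at ZT9, 7.62, 7.46 and 7.63 at ZT15, and 7.81, 7.63 and 7.80 at ZT21. The mice of ZT9 lay above all others, and the range was 0.50 with a standard error of 0.10 (adjusted p = 0.148). Next in order of p came Spr, for an enzyme of the tetrahydrobiopterin cofactor (range 0.55, adjusted p = 0.260), Slc29a4, for a monoamine transporter of the plasma membrane (0.63, adjusted p = 0.292), and Slc6a2, the noradrenaline transporter gene (0.27, adjusted p = 0.350). The median range of the list was 0.28, as in all tested probe sets. Of the enzymes that make the transmitters, Pnmt, for the last step to adrenaline, had a mean of 9.03 (adjusted p = 0.387), Dbh 6.68 and Ddc 5.83. Th, Tph1, Tph2, Hdc and Chat had means below 5, at 2.06, 2.7, 3.64, 3.6 and 2.21.

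None of the 9 tested G protein alpha subunits and none of the 14 tested kinases, arrestins and partner proteins passed the F-test, with 1 and 4 at an unadjusted p under 0.05 in limma, where 15.6% of all tested probe sets lay. The smallest p among the alpha subunits were those of Gna11 and Gnaq, which Gq/11-coupled receptors use, with ranges of 0.27 and 0.64 (adjusted p = 0.316 and 0.326), followed by Gnai3 and Gnal (ranges 0.36 and 0.37, adjusted p = 0.338 and 0.475). Arrb2, for a beta-arrestin, had a range of 0.48 (adjusted p = 0.284), Ric3, for a chaperone of nicotinic receptors, 0.31 (0.309), and Lypd6b and Lypd6, for membrane proteins that modulate nicotinic receptors, 0.50 and 0.45 (0.312 and 0.313). The median ranges of these lists were 0.23 and 0.45. Over the 3 lists, 0 genes passed the dark minus light test of limma in either direction, with 7 at an unadjusted p under 0.05 higher or lower, as 8.88% and 6.63% of all tested probe sets were.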

How the data were processed

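RNA of the prefrontal cortex of single mice was measured on Affymetrix Mouse430_v2 arrays, 12 in all. The deposited unit is intensity: the authors derived GCRMA values per probe set on a linear scale, with background correction and normalization between arrays, and used MAS5 for detection calls, which were not used here. Of 45101 probe sets 64 controls were left out. Of the other 45037, 34945 carry 1 gene symbol, 932 several and 9160 none, and 34741 were matched to GRCm38.p6 by gene identifier, with 0 symbols changed. Intensities were floored at 1, which none fell below, and put on the log2 scale. The 24075 probe sets (53.5%) with a mean log2 intensity of at least 5 were tested with the limma package (version 3.58.1, under R 4.3.3; functions lmFit and eBayes): a moderated F-test over the 4 times, with a threshold of 0.20, and the contrast of dark minus light, two-sided, with a threshold of 0.05. Adjustment followed Benjamini and Hochberg across every probe set tested, and each adjusted p is from limma. Many dim probe sets stayed nearly level over the arrays, each at a value of its own. Examples are 1422829_at of Drd4 (1.43 to 1.48) and 1427401_at of Chrna5 (3.85 to 3.93). Others did not, such as 1440422_at of Htr1f (2.3 to 3.86) and 1422207_at of Htr5a, whose highest and lowest arrays lay 1.26 apart. Small spreads in GCRMA values can be partly set by the method. For flat probe sets above the limit of 5, such as those of Htr5a and Chrna4 and the brighter of Htr1b, signal and background were not told apart.

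The receptor genes and all lists were chosen with earlier results of these data known. Values on every array are given for receptor and pathway genes past a test, for up to 3 genes of each transmitter with the smallest F-test p, and for Drd1, Drd2, Htr2c and Htr3a. Lists were counted, not tested, each gene by its brightest probe set. The code was tested on simulated data that held changes of known size. The number of arrays, 3 per time, limits the precision. Each p-value weighs differences between means against the spread between these mice within a time. That spread is moderated by limma with the help of every probe set tested. The alternatives were quantile normalization, centring on the median, no filter, the 15000 brightest probe sets, array weights, an intensity trend together with robust moderation, a block for replicate number, omission of each array, and the second-brightest probe set of a gene. After seeing the data, fits without the arrays richest in choroid plexus or striatum markers were added. The striatum fit left a single mouse at ZT9, so that only sizes of difference are given from it. Python 3.11.15 with pandas 2.3.3 and matplotlib 3.10.9 served for tables and plots.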

Additional observations from a re-analysis of the deposited data

How the results depend on the processing

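The count of receptor genes past the F-test, 3 of 18, was 4 with quantile normalization and 4 of 10 among the 15000 brightest probe sets, 3 with second probe sets, and 2 with a trend and robust prior. The 3 with second probe sets were not the same genes: Htr2c stayed, Htr1b came in, Hrh3 counted by its only probe set, and Hrh1 was lost (adjusted p = 0.551 in the F-test). The count was 1 with median centring, 1 with no filter and 1 without the choroid-rich arrays (Hrh1 there, Hrh3 in the other 2), and 11 with array weights, whose weights ran from 0.339 to 3.80. With single arrays left out it ran from 0 to 5. The replicate block gave 0; same-numbered mice correlated at r = -0.50 to 0.49, over 0.1 in 6 of 18 pairs, and 3 of 12 arrays correlated best with their own number. By its brightest probe set no receptor gene passed dark minus light in limma except 3 with array weights, and 0 with any single array left out; of the second probe sets named, those passing were that of Htr1b with quantile normalization (0.0365), with array weights (0.00962) and without ZT9 mouse 1 (0.0464), and that of Htr2c with array weights (0.0114) and without ZT15 mouse 1 (0.0374). Over all probe sets the F-test count, 483, was 2239 with quantile normalization, 251 with median centring, 194 with no filter, 1330 among the brightest, 14600 with array weights, 92 with the block, 2261 without the striatum-rich arrays, and from 40 to 3134 with single arrays left out. The dark minus light count, 23, was 61 with quantile normalization (54 higher, 7 lower), 64 among the brightest, 2879 with array weights, 11 with the block, 5 without the choroid-rich arrays, and from 6 to 106 with single arrays left out. The ZT21 minus ZT3 difference of Adra1b ran from -0.06 to 0.08 with single arrays left out, and ZT9 minus ZT15 of Drd2 from -0.06 to 0.21, with -0.14 with array weights and -0.19 without the striatum-rich arrays. The cause was not tested. Adjusted p of Hrh3 stayed under 0.20 in all normalizations and filters named, and the block gave 0.285, with 0.215 for Htr2c and 0.324 for Hrh1.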
